A study of Mus musculus with 6 samples.

Results

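Hypoxia response genes outside glycolysis were examined in C2C12 cells, a mouse line of skeletal muscle myoblasts, with and without a disrupted *Mstn* gene. The set was a list of 10 gene symbols, *Hif1a*, *Vegfa*, *Bnip3*, *Egln1*, *Egln3*, *Adm*, *Ndrg1*, *P4ha1*, *P4ha2* and *Ddit4*. The list was chosen with earlier results of these data known. All 10 were found among the 14548 genes of the deposited tables. RNA-seq compared 3 libraries of wild-type (WT) cells with 3 from the knockout line C11 (MSTN-KO), and the labels give every sample as skeletal muscle myoblasts. The MSTN-KO cells had been electroporated with a plasmid carrying Cas9 and a guide against exon 3 of *Mstn*, which encodes myostatin, a secreted inhibitor of muscle growth. The WT cells carry no stated edit. Both groups were grown in DMEM with fetal bovine serum, and no label names a low-oxygen treatment. All MSTN-KO libraries came from 1 edited line, so the genotype and the history of that line cannot be told apart. C11 also stands as the strain in the labels of the WT samples, so the genotype label was used for the grouping.

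Oxygen sensing in animal cells turns on the alpha subunits of the hypoxia-inducible factors (HIF), one of which is encoded by *Hif1a*. Where oxygen is present, prolyl hydroxylases of the EGLN family mark these subunits, and the VHL ubiquitin ligase then targets them for destruction. Where oxygen is scarce they persist, pair with ARNT and activate genes for blood vessel growth, glycolysis, mitochondrial turnover and collagen synthesis, among them the hydroxylase genes *Egln1* and *Egln3* themselves. This control acts largely on the protein, which was not analysed here, so the RNA values describe the transcripts of the sensor, the hydroxylases and the targets.

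HIF dimers bind DNA at a short core that reads ACGTG or GCGTG. The promoter stretches of the 3 genes that rose in MSTN-KO cells, *Ddit4*, *Bnip3* and *P4ha1*, are printed together with that of *Egln3*, a classical HIF target whose RNA did not pass the test, so that called and uncalled genes can be compared. They are read 5′ to 3′ on the gene's strand from RefSeq on GRCm38.p6, end before the annotated transcript start, and show in capitals each core on either strand (ACGTG or GCGTG, or their reverse complements CACGT and CACGC). In *Bnip3* the palindrome CACGTG holds ACGTG on both strands and was counted on each.
Ddit4, chr10:59951835-59952020, strand -: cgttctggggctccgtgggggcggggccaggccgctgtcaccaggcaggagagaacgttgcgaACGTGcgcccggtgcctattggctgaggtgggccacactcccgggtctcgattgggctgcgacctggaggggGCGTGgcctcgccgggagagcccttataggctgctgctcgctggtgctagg
Bnip3, chr7:138909520-138909756, strand -: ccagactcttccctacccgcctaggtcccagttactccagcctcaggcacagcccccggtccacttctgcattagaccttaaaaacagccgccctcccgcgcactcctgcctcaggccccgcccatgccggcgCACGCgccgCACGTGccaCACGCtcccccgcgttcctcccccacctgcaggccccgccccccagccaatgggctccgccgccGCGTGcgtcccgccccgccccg
P4ha1, chr10:59323046-59323295, strand +: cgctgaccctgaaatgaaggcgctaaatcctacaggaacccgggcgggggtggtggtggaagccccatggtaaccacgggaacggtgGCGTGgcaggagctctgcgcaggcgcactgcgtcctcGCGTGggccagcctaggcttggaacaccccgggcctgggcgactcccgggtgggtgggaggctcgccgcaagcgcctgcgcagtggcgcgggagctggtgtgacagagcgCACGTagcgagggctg
Egln3, chr12:54203875-54204124, strand -: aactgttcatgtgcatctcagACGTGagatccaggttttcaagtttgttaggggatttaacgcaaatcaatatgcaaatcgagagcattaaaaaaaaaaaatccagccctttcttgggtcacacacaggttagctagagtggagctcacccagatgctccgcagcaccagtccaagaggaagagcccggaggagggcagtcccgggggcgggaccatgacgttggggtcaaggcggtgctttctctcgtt
*Bnip3* had 5 matches, among them CACGTG between a pair of CACGC motifs, *P4ha1* had 3, *Ddit4* had 2 and *Egln3* had 1. RefSeq windows from 250 bases before to 50 bases after the start were found for 9 of the 10 genes (all but *Ndrg1*), with a pair of windows for *Vegfa*. The windows of *Hif1a* and *P4ha2* and the *Vegfa* window with 2 matches lay inside the GENCODE gene, past its start. The other *Vegfa* window, which reaches that start, had 0 matches. A core was present in 9 of the 10 windows (90.0%), against 43.8% of all 32851 windows, and ACGTG in 8 of them, against 19.6% of all windows. Frequent cores were not particular to this set. In 34 windows of further HIF targets outside glycolysis 76.5% held a core and 41.2% held ACGTG. In 29 windows of glycolytic HIF targets the shares were 79.3% and 48.3%. The windows of the hypoxia genes were richer in GC, at a median of 69.2% against 52.7%. Among the 14253 windows with at least 54.7% GC, the lowest value of the hypoxia genes, 63.8% held a core and 25.4% held ACGTG. This sets only a lower limit and does not match the windows in GC, so no excess beyond GC is read from it. Called and uncalled genes both held cores, and 4 matches lay in the window of *P4ha2*, whose RNA did not pass the test. Such matches are descriptions of these windows and not evidence of binding.

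The values were FPKM, fragments on a gene scaled by its length and by the mapped fragments of the library. *Ddit4*, *Bnip3* and *P4ha1* rose in MSTN-KO cells, by 0.76, 0.61 and 0.50 on the log2(FPKM + 1) scale, and none of the 9 genes tested fell. *Vegfa* and *Egln1* also had all 3 MSTN-KO libraries above all 3 WT libraries but did not pass the test, and *Hif1a*, *Egln3* and *P4ha2* had lower means with groups that overlapped. *Adm* was near 0 throughout. A gene was called where the Benjamini-Hochberg adjusted p of limma was under 0.05 over the 10837 genes that reached 1 FPKM in at least 1 library. On this scale fold changes of genes with low FPKM are understated.

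Of the 9 hypoxia genes tested, 3 were called higher (33.3%), where 8.78% of all tested genes were, and 0 were called lower, where 8.96% were. At an unadjusted p under 0.05 in the same limma fit, 6 of the 9 were higher, against 16.3% of all tested genes, and 0 were lower. The groups did not overlap and MSTN-KO was higher for 5 of the 9, against 19.3% of all tested genes, and MSTN-KO was lower for 0 of the 9, against 18.1%. None of the 9 met the study's cutoffs for a differentially expressed gene (a log2 fold change beyond 1 in either direction and a p under 0.05, taken here as unadjusted since the methods do not say), which 3.51% of all tested genes met. The study, which used the iDEP software, reported more such genes than the 380 found here, so these cutoffs do not reproduce its calls. The median log2 fold change was 0.34 over the 9 and -0.001 over all tested genes. With each library scaled to the same sum of FPKM, the all-gene median moved to -0.26, the calls over all genes went from 952 higher and 971 lower to 350 higher and 2373 lower, and those of the 9 genes to 1 higher (*Ddit4*) and 1 lower (*P4ha2*).

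**Figure D1:**
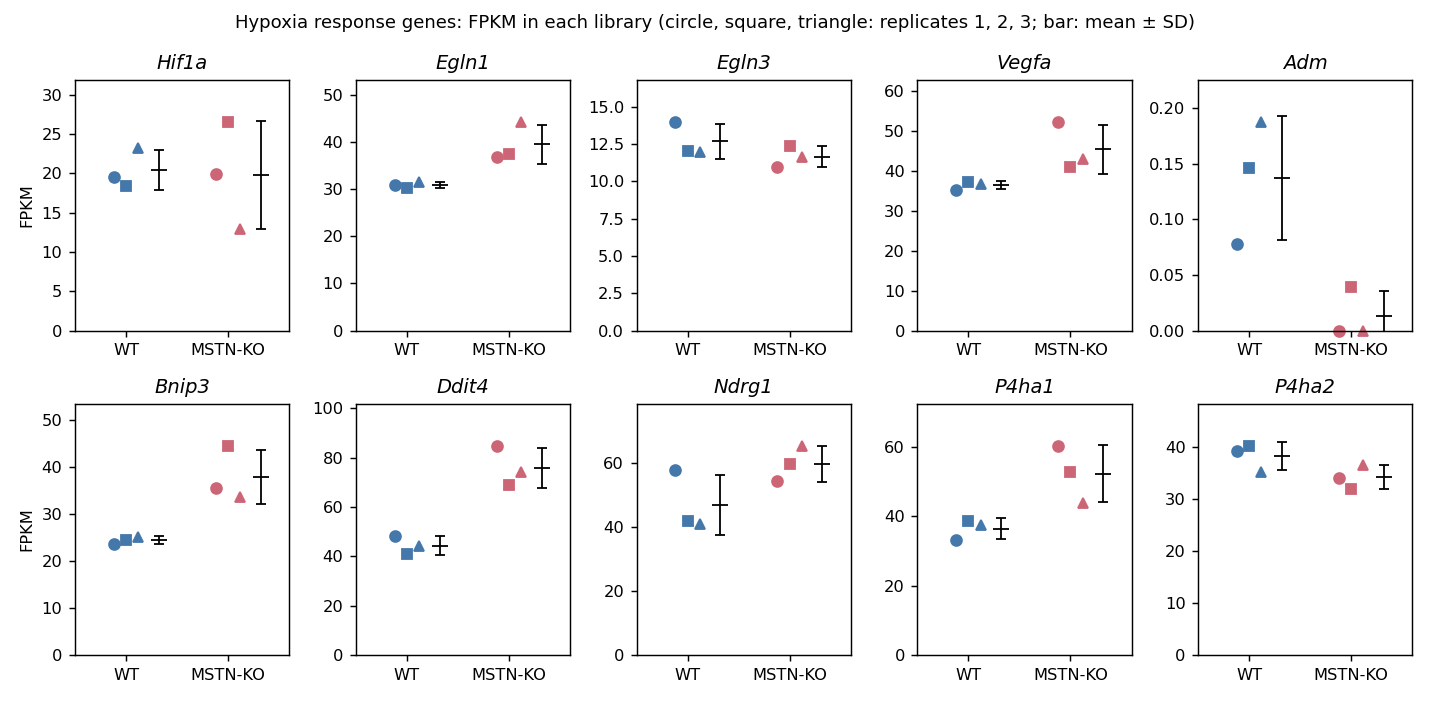
FPKM of each of the 10 hypoxia genes (vertical axes, each with its own scale from 0) in the WT and MSTN-KO libraries, with replicates 1, 2 and 3 as circle, square and triangle and the mean ± SD of 3 libraries beside them. In the panels of *Ddit4*, *Bnip3*, *P4ha1*, *Vegfa* and *Egln1* all MSTN-KO points lie above all WT points, and *Adm* does not reach 0.2 FPKM.

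*Hif1a* (ENSMUSG00000021109, chromosome 12 from 73901375 to 73947530, + strand, GRCm38), which encodes the oxygen-regulated alpha subunit, had 19.6, 18.4 and 23.2 FPKM in WT replicates 1, 2 and 3 and 19.9, 26.6 and 12.9 FPKM in MSTN-KO replicates 1, 2 and 3. The highest and the lowest library were both MSTN-KO, so the groups overlapped fully. The log2 fold change was -0.09 ± 0.21 (SE, n = 3 libraries each), with a 95% interval from -0.54 to 0.36 and a limma adjusted p of 0.79. Its sign turned to 0.17 without MSTN-KO replicate 3, to 0.003 without WT replicate 3 and to 0.085 with a correction for gene length and GC content. Its exons share 330 bases with an antisense gene and 148 bases with a gene on the same strand in the GENCODE annotation, and whether reads were counted by strand is not given in the sources used here.

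*Egln1* (ENSMUSG00000031987, chromosome 8 from 124908587 to 124949324, - strand) encodes PHD2, the main hydroxylase of HIF alpha under normal oxygen. It had 31.0, 30.3 and 31.5 FPKM in the WT libraries and 36.9, 37.5 and 44.4 FPKM in the MSTN-KO libraries. Every MSTN-KO library lay above the WT libraries, which differed by little more than 1 FPKM. The log2 fold change of 0.34 ± 0.13 (SE, n = 3 each) had an interval from 0.07 to 0.61 and an adjusted p of 0.077 by limma, short of the threshold. *Egln3* (ENSMUSG00000035105, chromosome 12 from 54178981 to 54203860, - strand), the strongly oxygen-responsive PHD3, had 14.0, 12.0 and 12.0 FPKM in WT and 10.97, 12.4 and 11.6 FPKM in MSTN-KO cells. The groups overlapped, and the log2 fold change of -0.11 ± 0.14 had an interval from -0.40 to 0.18 (limma adjusted p = 0.61).

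Within a library the pair can be set against each other, since FPKM is per length. The log2 level of *Egln1* over *Egln3* was 1.09, 1.26 and 1.32 in WT replicates 1, 2 and 3 and 1.66, 1.52 and 1.85 in MSTN-KO replicates 1, 2 and 3. All 3 MSTN-KO ratios exceeded all 3 WT ratios, and the means differed by 0.45 (two-sided exact permutation test, p = 0.1, the smallest that 3 libraries against 3 allow). The share of *Egln3* in the summed FPKM of *Egln1*, *Egln2* and *Egln3* was 16.8, 15.9 and 16.0% in WT and 12.2, 14.1 and 11.5% in MSTN-KO cells. *Egln2*, the other paralog, took the largest or the next largest share in every library, from 41.8 to 46.9%, and its log2 fold change of 0.27 ± 0.13 did not pass the test (limma adjusted p = 0.17).

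Of 14 further genes of the sensing machinery that were tested, from a list of partners, ubiquitin ligase subunits and coactivators, 2 were higher by limma (14.3%, against 8.78% of all tested genes). Lower were 0, against 8.96%, and the median log2 fold change was 0.03. With scaling to a common sum 0 were higher and 4 lower, where 350 and 2373 of all 10837 tested genes were. At an unadjusted p under 0.05 in the main fit 2 were higher, against 16.3% of all tested genes, and 2 lower. *Cited2*, a HIF target whose product competes with HIF for the coactivators CBP and p300, rose by 0.53 ± 0.13 (SE, limma adjusted p = 0.014), from 199.6 ± 12.1 to 290.0 ± 37.6 FPKM (SD, n = 3 each). *Elob*, the elongin B subunit of the VHL ligase, rose by 0.49 ± 0.14 (adjusted p = 0.027). *Eloc*, which encodes its partner elongin C and is named here after its values were seen, had the opposite sign and the largest log2 fold change of the 14 in size, at -1.01 ± 0.34, but did not pass the test (unadjusted p = 0.011, limma adjusted p = 0.057). It had 78.2, 125.7 and 142.9 FPKM in WT and 27.6, 95.9 and 62.8 FPKM in MSTN-KO cells, with groups that overlapped, and was the 1 gene of the 14 past the study's cutoffs as taken here. The calls of *Cited2* and *Elob* were both lost without WT replicate 2 (adjusted p of 0.055 and 0.10), without WT replicate 3 (0.053 and 0.081) and with the scaling to a common sum (0.088 and 0.10), and *Elob* alone also lost it without WT replicate 1 (0.079), MSTN-KO replicate 1 (0.090) and MSTN-KO replicate 3 (0.053), with quantile normalization (0.24), with the length and GC correction (0.11, or 0.15 with the replicate block) and with no filter (0.057). *Arnt* (0.07, adjusted p = 0.79) and *Vhl* (0.09, adjusted p = 0.70) were not called, and scaling to a common sum turned them to -0.19 and -0.18 and *Egln2* to -0.01. *Epas1*, which encodes the other main alpha subunit, was at 0.061 ± 0.016 FPKM in WT and 0.0063 ± 0.0055 FPKM in MSTN-KO cells (SD, n = 3 each) and was not tested. With *Epas1* near 0, the log2 ratio of *Hif1a* over *Epas1* depended on the pseudocount, differing between the groups by -0.013 with 1 and by 0.50 with 0.1, and nothing is read from it.

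Among the secreted products, *Vegfa* (ENSMUSG00000023951, chromosome 17 from 46016993 to 46032369, - strand), the growth factor of blood vessels, had 35.3, 37.1 and 36.7 FPKM in WT and 52.3, 40.8 and 42.9 FPKM in MSTN-KO cells. The groups did not overlap, with the widest gap in MSTN-KO replicate 1. Its log2 fold change was 0.30 ± 0.13 (SE, n = 3 each), with an interval from 0.02 to 0.58, an unadjusted p of 0.037 and an adjusted p of 0.13 by limma. *Adm* (ENSMUSG00000030790, chromosome 7 from 110627661 to 110629820, + strand), which encodes the vasodilator peptide adrenomedullin, had 0.078, 0.15 and 0.19 FPKM in WT libraries, was listed at 0 in MSTN-KO replicates 1 and 3 and had 0.039 FPKM in replicate 2. Each WT library lay above each MSTN-KO library (exact permutation p = 0.1, the smallest possible), but the gene never reached the 1 FPKM needed for the test. With no filter its limma adjusted p was 0.058.

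*Bnip3* (ENSMUSG00000078566, chromosome 7 from 138890836 to 138909519, - strand) encodes a mitochondrial outer membrane protein that promotes the removal of mitochondria by autophagy. Its levels were 23.5, 24.4 and 25.2 FPKM in WT replicates 1, 2 and 3 and 35.6, 44.4 and 33.6 FPKM in MSTN-KO replicates 1, 2 and 3. The lowest MSTN-KO library thus stood well above the highest WT library. *Bnip3* rose by 0.61 ± 0.14 on the log2 scale (SE, n = 3 each), with an interval from 0.31 to 0.90 and a limma adjusted p of 0.0087, which was 1.55 times in mean FPKM. The call was lost in 1 setting, the scaling to a common sum (0.33, adjusted p = 0.13). Its exons share 504 bases with an antisense gene, from which unstranded reads could not be told apart.

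*Bnip3l*, the closest relative of *Bnip3* with a like role, had the opposite sign, with 30.1 ± 3.57 FPKM in WT and 22.2 ± 3.64 FPKM in MSTN-KO cells (SD, n = 3 each) and a log2 fold change of -0.43 ± 0.15 that did not pass the test (limma adjusted p = 0.063). It passed without MSTN-KO replicate 2 (-0.55, adjusted p = 0.021), with the scaling to a common sum (-0.71, 0.016) and with the length and GC correction (-0.31, 0.034). The log2 level of *Bnip3* over *Bnip3l* was -0.19, -0.26 and -0.42 in WT replicates 1, 2 and 3 and 0.72, 0.74 and 0.78 in MSTN-KO replicates 1, 2 and 3. *Bnip3l* was thus the more abundant of the pair in all 3 WT libraries and *Bnip3* in all 3 MSTN-KO libraries. This pair was chosen after its values were seen, and no test is given.

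*Ddit4* (ENSMUSG00000020108, chromosome 10 from 59949669 to 59951834, - strand) encodes REDD1, a stress-induced inhibitor of mTORC1, the kinase complex that drives protein synthesis. It had 48.1, 40.8 and 44.2 FPKM in WT and 84.8, 68.7 and 74.1 FPKM in MSTN-KO cells. The gap between the groups was wider than the range within either of them. Its rise of 0.76 ± 0.13 on the log2 scale (SE, n = 3 each, interval from 0.48 to 1.04) was the largest of the 9 genes, with a limma adjusted p of 0.0016 and 1.71 times the WT mean FPKM. It was called in every alternative that was run, at 0.48 to 0.83.

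*Ndrg1* (ENSMUSG00000005125, chromosome 15 from 66929318 to 66969640, - strand), a stress-responsive gene linked to growth arrest and differentiation, had 57.9, 41.8 and 41.0 FPKM in WT and 54.3, 59.7 and 65.5 FPKM in MSTN-KO cells. WT replicate 1 lay among the MSTN-KO libraries, apart from the other WT libraries. The log2 fold change was 0.36 ± 0.15 (SE, n = 3 each) with an interval from 0.03 to 0.68 and an adjusted p of 0.12 by limma. Without WT replicate 1 it was 0.52 with an adjusted p of 0.028. Genes on the opposite strand share 419 and 137 exon bases with it.

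*P4ha1* and *P4ha2* encode alternative catalytic subunits of collagen prolyl 4-hydroxylase, which collagen needs for a stable triple helix. *P4ha1* (ENSMUSG00000019916, chromosome 10 from 59323296 to 59373304, + strand) had 33.1, 38.7 and 37.4 FPKM in WT replicates 1, 2 and 3 and 60.3, 52.6 and 43.8 FPKM in MSTN-KO replicates 1, 2 and 3. The groups did not overlap, and the MSTN-KO libraries were spread more widely than the WT libraries. *P4ha1* rose by 0.50 ± 0.14 on the log2 scale (SE, n = 3 each), with an interval from 0.20 to 0.81 and a limma adjusted p of 0.027, which was 1.44 times in mean FPKM. This call was the least firm of the 3. It was lost without WT replicate 1 (0.435, adjusted p = 0.083), WT replicate 2 (0.55, 0.064) or MSTN-KO replicate 1 (0.39, 0.14), with no filter (0.054), with quantile normalization (0.060), with scaling by the percentile 75 (0.059) and with scaling to a common sum (0.22, 0.32).

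*P4ha2* (ENSMUSG00000018906, chromosome 11 from 54100095 to 54131665, + strand) had 39.2, 40.1 and 35.2 FPKM in WT and 34.1, 31.8 and 36.5 FPKM in MSTN-KO cells. The groups overlapped, and the log2 fold change of -0.16 ± 0.12 (SE, n = 3 each) had an interval from -0.43 to 0.11 (limma adjusted p = 0.40). Scaling to a common sum made it a call, at -0.44 with an adjusted p of 0.018. The log2 level of *P4ha1* over *P4ha2* was -0.24, -0.05 and 0.09 in WT replicates 1, 2 and 3 and 0.81, 0.71 and 0.26 in MSTN-KO replicates 1, 2 and 3. The groups did not overlap, and the means differed by 0.66 (exact permutation p = 0.1, the smallest possible). Of the summed FPKM of *P4ha1*, *P4ha2* and *P4ha3*, *P4ha1* took 44.9, 47.9 and 50.4% in WT and 61.4, 60.9 and 52.7% in MSTN-KO cells.

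**Figure D2:**
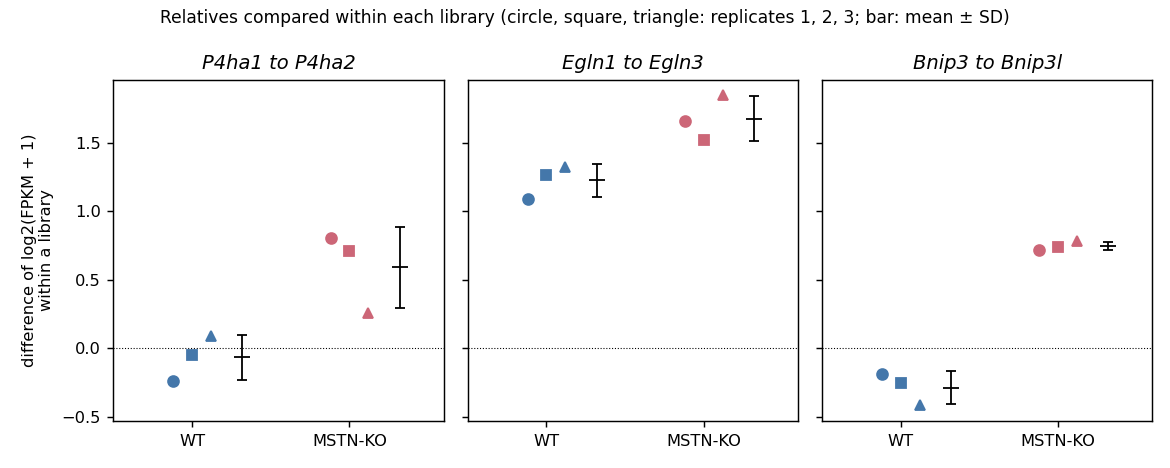
Difference of log2(FPKM + 1) between a pair of relatives within each library (vertical axis, shared by the panels), for WT and MSTN-KO, with replicates 1, 2 and 3 as circle, square and triangle and the mean ± SD of 3 libraries. The MSTN-KO points lie above the WT points for *P4ha1* over *P4ha2*, for *Egln1* over *Egln3* and for *Bnip3* over *Bnip3l*, by 0.66, 0.45 and 1.035 on average.

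In WT cells the levels per length ran from *Ndrg1* (46.9 ± 9.5 FPKM, SD, n = 3) and *Ddit4* (44.4 ± 3.67) through *P4ha2* (38.2 ± 2.62), *P4ha1* (36.4 ± 2.96), *Vegfa* (36.4 ± 0.97), *Egln1* (30.9 ± 0.62), *Bnip3* (24.4 ± 0.83), *Hif1a* (20.4 ± 2.51) and *Egln3* (12.7 ± 1.16) to *Adm* (0.14 ± 0.056). Neighbours in this order whose libraries overlapped were *Ndrg1* with *Ddit4*, *P4ha2* with *P4ha1* and *P4ha1* with *Vegfa*. In MSTN-KO cells *Ddit4* came first at 75.9 ± 8.18 FPKM, above *Ndrg1* at 59.8 ± 5.56 in every library. *Ndrg1*, *P4ha1* (52.2 ± 8.23), *Vegfa* (45.3 ± 6.12), *Egln1* (39.6 ± 4.18) and *Bnip3* (37.8 ± 5.78) each overlapped the next gene, down to *P4ha2* (34.1 ± 2.36). *P4ha2*, *Hif1a* (19.8 ± 6.84) and *Egln3* (11.7 ± 0.73) did not overlap the next gene, down to *Adm* (0.013 ± 0.023). *P4ha2* was thus the third gene of the order in WT and the seventh in MSTN-KO cells.

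**Figure D3:**
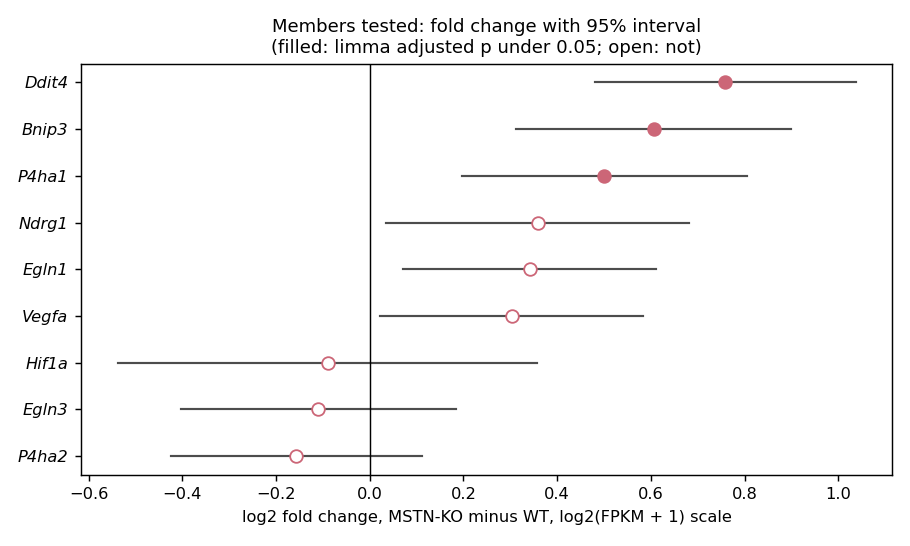
Log2 fold change of the 9 tested hypoxia genes (horizontal axis, MSTN-KO minus WT on the log2(FPKM + 1) scale), with lines for the 95% interval and filled points for a limma adjusted p under 0.05. The intervals of *Hif1a*, *Egln3* and *P4ha2* include 0, and the filled points are *P4ha1* at 0.50, *Bnip3* at 0.61 and *Ddit4* at 0.76.

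Of 28 tested genes from a list of further HIF targets outside glycolysis, 3 were higher (10.7%) and 4 lower (14.3%), near the 8.78% and 8.96% of all tested genes. Their median log2 fold change was -0.05. With scaling to a common sum 2 were higher and 6 lower, where 350 and 2373 of all 10837 tested genes were. *Hmox1*, a heme-degrading enzyme, rose by 0.82 ± 0.17 (SE, limma adjusted p = 0.0048), *Ak4*, a mitochondrial adenylate kinase, by 0.78 ± 0.17 (adjusted p = 0.0070) and *Fam162a*, a mitochondrial protein, by 0.70 ± 0.15 (adjusted p = 0.0060). *Angptl4*, an inhibitor of lipoprotein lipase, fell by 1.12 ± 0.14 (adjusted p = 0.00013), *Pdgfb*, a growth factor, fell by 0.94 ± 0.19 (adjusted p = 0.0047) and *Cxcr4*, a chemokine receptor, fell by 0.93 ± 0.15 (adjusted p = 0.0010). The call of *Ak4* was lost with scaling to a common sum (0.54, adjusted p = 0.065).

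Of 19 tested glycolytic targets of HIF, 9 were higher (47.4%, against 8.78% of all tested genes) and 3 lower (15.8%, against 8.96%), with a median of 0.39. *Pdk1*, which restrains the entry of pyruvate into mitochondria, rose by 0.61 ± 0.15 (limma adjusted p = 0.013), *Pfkl*, a phosphofructokinase, by 0.59 ± 0.13 (0.0065), *Aldoa*, an aldolase, by 0.57 ± 0.15 (0.017) and *Ldha*, a lactate dehydrogenase, by 0.56 ± 0.14 (0.016). The lactate exporter *Slc16a3* fell by 4.06 ± 0.17 (adjusted p = 4.8e-09) and *Pfkp* fell by 1.04 ± 0.13 (0.00011). *Aldoc* fell by 0.67 ± 0.18 (0.019) but was near the filter, at 1.10, 1.11 and 0.68 FPKM in WT and 0.16, 0.23 and 0.29 FPKM in MSTN-KO cells. It passed the filter only through WT libraries, and with a filter on the mean it was not tested and 2 genes were lower. The glucose transporter *Slc2a1* was not called (0.19, 0.30) and had -0.09 with scaling to a common sum. The count of 9 higher became 1 with scaling to a common sum, 3 with quantile normalization, 5 with no filter, 2 without WT replicate 2, 3 without WT replicate 3, 4 without MSTN-KO replicate 1 and 6 without WT replicate 1 or MSTN-KO replicate 3. *Ldha* lost its call without WT replicate 2 or 3 and with quantile normalization. *Aldoa* lost it without WT replicate 2 or 3 or MSTN-KO replicate 1, with no filter, with quantile normalization and with scaling to a common sum. *Aldoc* lost it without WT replicate 1 or 2 or MSTN-KO replicate 1 and with quantile normalization, and *Pdk1* and *Pfkl* with scaling to a common sum.

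**Figure D4:**
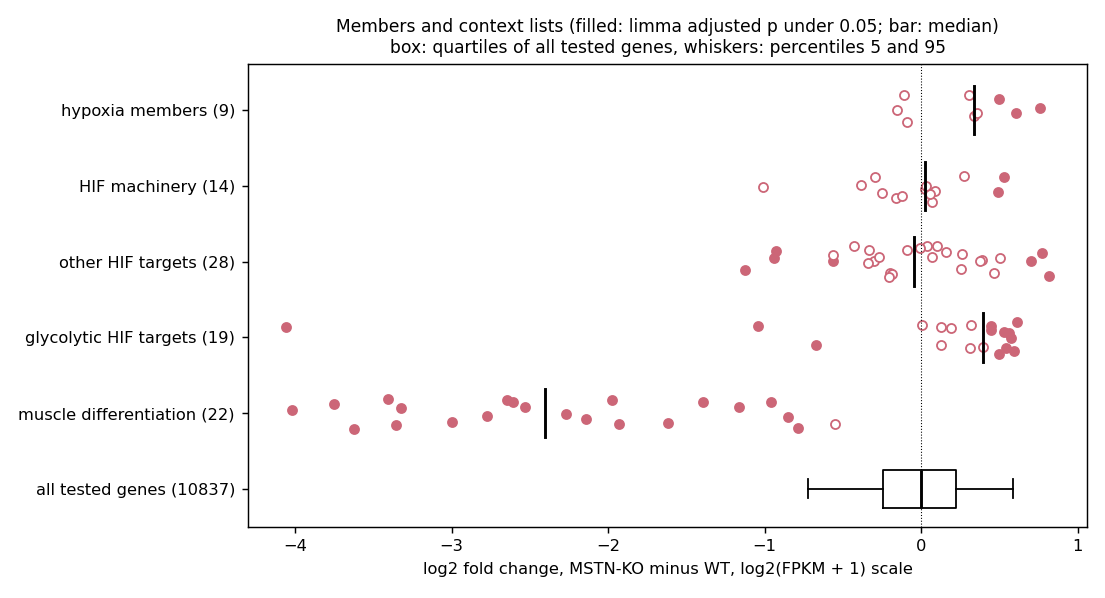
Log2 fold change (horizontal axis, MSTN-KO minus WT on the log2(FPKM + 1) scale) of each tested gene of the hypoxia set and of 4 further lists, with filled points for a limma adjusted p under 0.05, a bar for each list's median, and a box for the quartiles of all 10837 tested genes with whiskers at percentiles 5 and 95. The medians are 0.34 for the hypoxia genes, 0.03 for the HIF machinery, -0.05 for other HIF targets, 0.39 for glycolytic targets and -2.40 for muscle differentiation genes.

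The libraries also differed in their myogenic state. Of 22 tested genes of muscle differentiation, 21 were lower in MSTN-KO cells (95.5%, against 8.96% of all tested genes) and 0 higher, with a median of -2.40. At an unadjusted p under 0.05 by limma 22 were lower and 0 higher, and with a filter on the mean 20 were called lower. *Cav3*, *Myh3*, *Ckm*, *Casq2* and the uncalled *Neb* passed the filter only through WT libraries, the group in which they were higher. *Mylpf*, *Tnni1* and *Myl1*, which encode sarcomere proteins, fell, with log2 fold changes of -4.02, -3.755 and -3.63, as did *Myog*, a transcription factor of differentiation, with -3.36 (limma adjusted p of 2.1e-05, 7.7e-06, 1.1e-06 and 4.0e-05). The summed FPKM of the 24 listed genes in the tables was 2174, 2182 and 1014 in WT and 400, 460 and 536 in MSTN-KO cells, so WT replicate 3 lay between the other WT libraries and the MSTN-KO libraries. WT replicate 3 was the highest WT library for *Bnip3* and the middle one for *Ddit4* and *P4ha1*. Without WT replicate 3 the log2 fold changes of *Ddit4*, *Bnip3* and *P4ha1* were 0.76, 0.63 and 0.52, with limma adjusted p of 0.0049, 0.018 and 0.04998. All 3 were still called, *P4ha1* only just. The WT libraries left, at 2174 and 2182 in summed FPKM, lay furthest from the MSTN-KO libraries. This fit therefore cannot separate the differentiation state from the genotype. The part of the differentiation state in the hypoxia gene values was not tested, and in bulk RNA fewer differentiating cells and less RNA per cell cannot be told apart.

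All 5 myoblast markers in the tables were above 0 in every library, but their summed FPKM was 565, 449 and 383 in WT and 279, 347 and 338 in MSTN-KO cells, without overlap. *Myod1*, a master transcription factor of the muscle lineage, fell by 0.58 ± 0.13 (SE, limma adjusted p = 0.0099) and *Itga7*, a laminin receptor, fell by 0.54 ± 0.17 (adjusted p = 0.044), while *Pax7*, a transcription factor of muscle stem cells, rose by 0.64 ± 0.20 (adjusted p = 0.042) and *Myf5* and *Msc* were not called. The part of these changes in the hypoxia gene values was not tested. The 3 endothelial markers summed to at most 0.14 FPKM and the 2 immune markers to between 0.70 and 2.44 FPKM, mostly *Cd68*. The 3 adipocyte markers summed to 5.73, 6.48 and 5.69 FPKM in WT and 9.32, 6.74 and 9.94 FPKM in MSTN-KO cells, mostly *Pparg*, which was not called. *Fabp4*, a fatty acid binding protein, rose by 0.83 ± 0.19 (SE, limma adjusted p = 0.0092), from 0.24 to 1.24 FPKM on average, and passed the filter only through MSTN-KO libraries. *Plin1* was under 0.1 FPKM. The 4 fibroblast markers summed to 256, 253 and 183 FPKM in WT and 376, 386 and 321 FPKM in MSTN-KO cells, without overlap. This sum was mostly *Col3a1*, a fibrillar collagen, which rose by 0.68 ± 0.15 (limma adjusted p = 0.0077). *Dcn*, a proteoglycan gene of the same list, fell by 0.73 ± 0.23 (limma adjusted p = 0.045), *Col1a1* was not called (0.37, adjusted p = 0.20), and *Pdgfra* stayed under 1 FPKM and was not tested. The part of the adipocyte and fibroblast markers in the hypoxia gene values was not tested. *Mstn* itself was near 0 in all libraries, at no more than 0.059 FPKM, and could not check the genotype labels. The FPKM of a library summed to 723705 to 764524 in WT and 856314 to 999579 in MSTN-KO cells, and depth was 0.859 to 1.11 times that of WT replicate 1. The absolute depth is unknown.

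**Figure D5:**
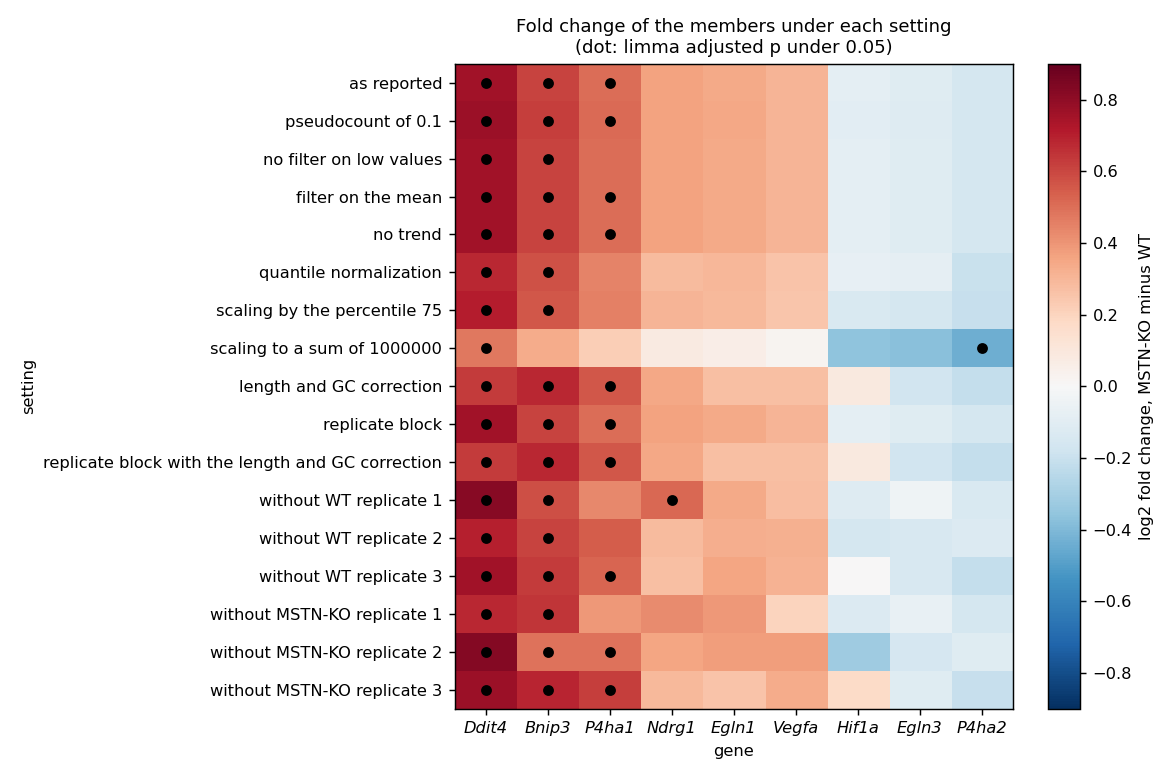
Log2 fold change (colour, MSTN-KO minus WT) of the 9 tested hypoxia genes (columns) as reported and under each alternative setting (rows), with a dot where the limma adjusted p was under 0.05. *Ddit4* carries a dot in every row and *Bnip3* in every row but the scaling to a sum of 1000000, while *P4ha1* loses it in 7 rows.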

How the data were processed

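RNA-seq of 3 WT and 3 MSTN-KO libraries was used, grouped by the genotype label. The authors sequenced total RNA on an Illumina HiSeq system and deposited FPKM per gene, one library per file, with replicates not pooled. The submitters' processing notes name Bowtie 0.12.2 and the build mm8, without a role. The annotation, any filter and the tool behind the FPKM are not given in the sources used here. Symbols, positions and lengths came from GENCODE M21 (GRCm38), joined by gene identifier, and 14445 of 14548 identifiers (99.3%) had length and GC content. Promoters came from RefSeq on GRCm38.p6.

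Genes reaching 1 FPKM in any library were fitted as log2(FPKM + 1) with limma 3.58.1 in R 4.3.3 (group only, eBayes with a trend, two-sided), and called at a Benjamini-Hochberg adjusted p under 0.05. Ratios within a library were tested by exact permutation over the libraries. Named genes were all 10 hypoxia genes, up to 3 called rises and 3 called falls per list, and *Epas1*, *Arnt*, *Vhl*, *Egln2*, *Bnip3l*, *Slc2a1*, *Ldha*, *Pdk1* and *Myog*. Cell type markers named beside them were chosen from their lists after their values were seen. The genes and lists were chosen with earlier results of these data known. Alternatives were a pseudocount of 0.1, other filters, no trend, other scalings, a length and GC correction with mgcv 1.9.3, a replicate block, and leaving out each library. The fit was tested on simulated data with 200 genes changed by 1 on the log2 scale, of which 84.5% were recovered. Smaller changes, such as those of the hypoxia genes, were not simulated. Relative depth was estimated from the steps of 453 to 653 genes under 0.1 FPKM, and no counting error can be given. Nothing states that libraries came from separate cultures, so p-values measure only the spread between these libraries. Other steps used Python 3.11.15 (pandas 2.3.3, numpy 2.4.6, matplotlib 3.10.9, scipy 1.17.1).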

Additional observations from a re-analysis of the deposited data

How the results depend on the processing

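The call of *Ddit4* was kept in every alternative run and that of *Bnip3* in all but the scaling to a common sum, and the settings that ended the call of *P4ha1* are given with that gene. With scaling to a sum of 1000000, tested genes called were 350 higher and 2373 lower (952 and 971 as reported), and hypoxia genes 1 higher and 1 lower. The median log2 fold change of the hypoxia genes was then 0.063, where that of all tested genes was -0.256 (0.341 and -0.001 as reported). The median of the hypoxia genes was 0.287 with quantile normalization, 0.291 with scaling by the percentile 75 and 0.272 with the length and GC correction, with or without the replicate block. Leaving out 1 library gave medians of 0.293 to 0.389, 2 to 3 hypoxia genes higher and 0 lower, 423 to 1184 tested genes higher and 606 to 1251 lower. The count of tested genes higher was 423 without WT replicate 2 (606 lower), 603 without WT replicate 3, 511 without MSTN-KO replicate 1 and 583 without MSTN-KO replicate 3. Signs turned for *Hif1a*, at 0.085 with the length and GC correction with or without the replicate block and at 0.003 without WT replicate 3 and 0.173 without MSTN-KO replicate 3 (-0.321 to 0.173 over the libraries left out), and for *Arnt* (-0.194), *Vhl* (-0.181), *Egln2* (-0.007) and *Slc2a1* (-0.091) with scaling to a sum of 1000000, and *Arnt* also without MSTN-KO replicate 2 (-0.058, in a range up to 0.171). The log2 ratio of *Hif1a* over *Epas1* was 0.502 with a pseudocount of 0.1 and -0.243 to 0.245 without 1 library, with *Epas1* near 0. With scaling to a sum of 1000000 the median of all tested genes moved the same way, from -0.001 to -0.256. The turns under that setting are thus not particular to these genes. The cause of the other shifts was not tested. With the replicate block, 3 hypoxia genes were higher and 0 lower, and 939 and 1001 tested genes. Replicate numbers did not pair the libraries, since the deviations of same-numbered libraries correlated at -0.015, -0.13 and -0.14, and the block was not used. The unknown depth limits what can be said of *Adm* and *Epas1*.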

Other observations

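*P4ha1* and *Ddit4*, which both rose, lie within 1 Mb of each other on chromosome 10 in GENCODE M21. Of 15 tested genes within 1 Mb of *P4ha1*, 1 was called higher, *Ddit4*, and 0 lower. Of 16 tested genes within 1 Mb of *Ddit4*, 1 was called higher, *P4ha1*, and 0 lower (limma adjusted p under 0.05). The pair was singled out after its values were seen. Near *Bnip3*, 1 of 5 tested neighbours was called higher, *Lrrc27*, and 0 lower. Of all tested genes 8.78% were called higher and 8.96% lower, and nothing local is read from these counts. Near *Vegfa* 3 of 39 were higher and 1 lower, and near *Hif1a* 2 of 6 were lower. Near *Egln1*, *Adm* and *P4ha2*, 1 was higher and 1 lower each, of 12, 14 and 22 tested neighbours. No neighbour of *Egln3* or *Ndrg1* was called.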
